A study of Homo sapiens with 13 samples.

Results

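Docetaxel and adapalene were compared directly in PC3, a cell line from a human prostate carcinoma, here carrying a hairpin RNA that targets TIMP1, whose product is secreted and blocks metalloproteinases. The 7 libraries used were the 4 labelled Docetaxel (1 nM) and the 3 labelled Adapalene (5 µM), out of 13 in the series, and no Vehicle or Combo library entered a test. Both drugs were given for 48 h, to the same hairpin line, so the hairpin is common to every group and no library without it was analysed here. The doses were not matched, and the series' design text calls the replicates technical, so the p-values cover the spread among such replicates of 1 cell line and nothing wider. Of 67882 gene identifiers in the count table, 15261 passed the filter on low counts in these 7 libraries and were tested. Levels of the 3 Vehicle libraries, put on the same scale, are given beside the genes as a description only.

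Docetaxel is a taxane: it binds tubulin inside microtubules, stops them from shortening, and so disturbs the mitotic spindle. Adapalene, a retinoid made by synthesis, is a ligand of retinoic acid receptors, transcription factors that bind paired hexamers in DNA together with retinoid X receptors. Both are known to slow the growth of cancer cells, one through the spindle and the other through receptor-driven transcription.

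Library totals of the 7 libraries ranged from 11948720 to 16110898 counts, and mitochondrially encoded genes took 0.722 to 2.82% of counts, above 2% in Docetaxel replicate 4 and Adapalene replicate 3. Outside the 7, Vehicle replicate 3 (2.61%) and Combo replicate 3 (2.56%) were also above 2%. Adapalene replicate 3 stood apart from the other Adapalene libraries. On the first principal component of log2(CPM + 1), CPM being counts scaled to 1000000 per library, it lay at 11.4 against 28.7 and 38.8, and on the second at -27.9 against 1.33 and 12.5. The epithelial markers KRT8, KRT18, KRT19, EPCAM, CDH1 and ESRP1 were all tested, with a summed level of 3154 to 4049 CPM in Docetaxel and 2519 to 2728 CPM in Adapalene. The androgen-regulated genes KLK2 and KLK3, which PC3 cells are known to lack, reached at most 1 count in any of the 7 libraries. The table also lists some genes that every cell uses at about 0, such as LDHA (at most 1 count) and NDUFS1 (0 counts), so that an untested gene here is not thereby a silent one.

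**Figure D1:**
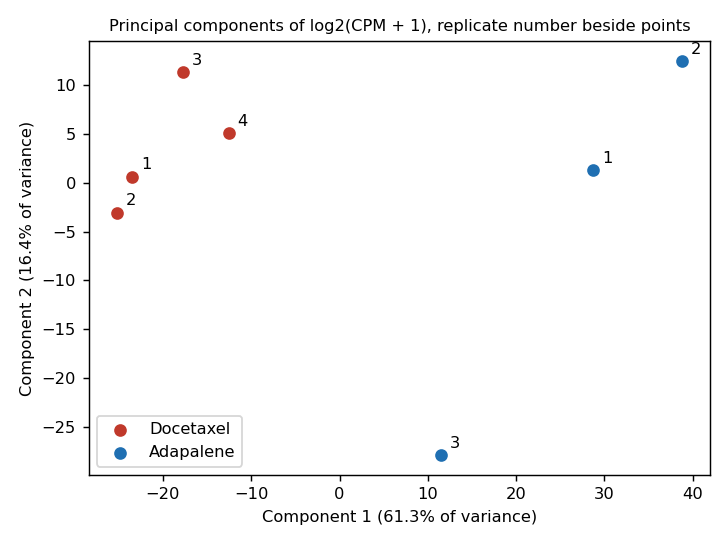
Principal components of log2(CPM + 1) over the tested genes in the 4 Docetaxel and 3 Adapalene libraries; each point is 1 library, with its replicate number. The first component (61.3% of variance) separates the drugs, and Adapalene replicate 3 lies at -27.9 on the second (16.4% of variance).

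The 2 drugs left widely different transcript profiles. A gene was called when its adjusted p in edgeR's quasi-likelihood test, with Benjamini-Hochberg adjustment over all tested genes, was under 0.05, and 4497 genes were called (29.5% of those tested). Of these, 2215 were higher with docetaxel (14.5%) and 2282 higher with adapalene (15%). A difference of at least 2-fold was called in 797 genes, 478 higher with docetaxel and 319 higher with adapalene. The median log2 fold change over all tested genes, docetaxel minus adapalene as everywhere here, was -0.0076. Of the 10764 genes that were not called, 8973 had a 95% confidence interval that lay within 2-fold in either direction. The number of calls depended on single libraries: it was 2746 without Docetaxel replicate 1, 2884 without Docetaxel replicate 2 and 2329 without Adapalene replicate 1, and the count of at least 2-fold differences was 1207 without Adapalene replicate 3.

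Vehicle levels are given here against those of all tested genes, of which 35.3% had a Vehicle mean between the drug means, 32.1% below both and 32.5% above both. Among genes higher with adapalene, the Vehicle mean lay between the drug means in 1621 (71.0%), below both in 305 (13.4%) and above both in 356 (15.6%). Among genes higher with docetaxel it lay between the drug means in 1092 (49.3%), below both in 665 (30.0%) and above both in 458 (20.7%). Calls select genes with a gap between the drug means, into which the Vehicle mean falls more readily. The shares with Vehicle between are therefore partly set by that selection. Of the 478 genes at least 2-fold higher with docetaxel, 281 had a Vehicle mean below both drugs, and of the 319 at least 2-fold higher with adapalene, 74 did.

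**Figure D2:**
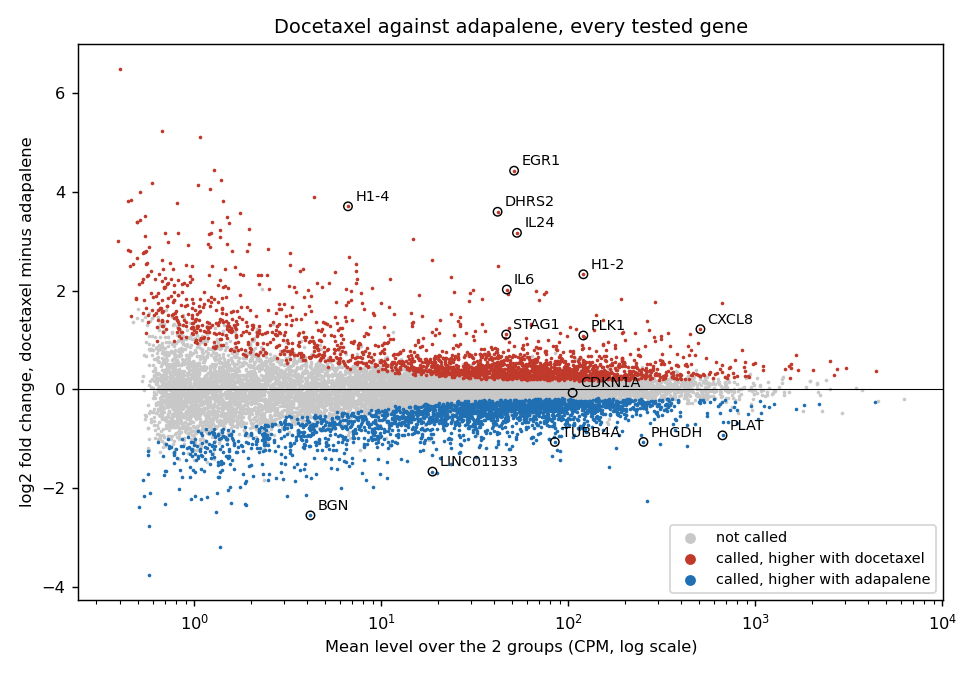
Log2 fold change (docetaxel minus adapalene) of every tested gene against its mean level over both groups (CPM, log scale). Red points are the 2215 genes called higher with docetaxel and blue points the 2282 called higher with adapalene; circled genes are named in the text, from EGR1 at 4.42 to BGN at -2.54.

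The promoters shown here belong to 8 genes from the groups that follow: a growth factor response gene, 3 inflammatory genes, a pair of histone genes, a mitotic kinase and a retinoic acid receptor. Each line is the 120 bases before the annotated RefSeq start (GRCh38.p14), read 5′ to 3′ on the gene's strand. Capitals mark every match, on either strand, to the motifs searched: the CCAAT box (CCAAT, or ATTGG on the other strand), the CHR element TTTGAA, the AP-1 site TGACTCA, the TATA motif TATAAA, the cAMP response element (tgacgtca), the octamer (atgcaaat) and, by name, the CArG box, the NF-kappaB site and the DR5 element. Shares of promoters with a motif, below, are over windows of 300 bases (250 before to 50 after the start) and both strands, and a match is a description of the letters only.
EGR1 (chr5:138465359-138465478, plus strand, CArG boxes, and the CHR element on the other strand): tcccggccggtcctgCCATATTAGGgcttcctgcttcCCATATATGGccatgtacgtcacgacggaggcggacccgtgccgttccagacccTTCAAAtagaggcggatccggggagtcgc
IL6 (chr7:22727080-22727199, plus strand, NF-kappaB site and CCAAT box): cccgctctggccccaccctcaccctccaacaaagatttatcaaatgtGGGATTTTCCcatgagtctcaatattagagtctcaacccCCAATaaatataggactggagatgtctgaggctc
CXCL2 (chr4:74099196-74099315, minus strand, overlapping NF-kappaB sites on both strands): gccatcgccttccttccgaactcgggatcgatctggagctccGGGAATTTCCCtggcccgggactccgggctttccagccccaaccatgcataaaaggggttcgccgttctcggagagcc
NFKBIA (chr14:35404750-35404869, minus strand, NF-kappaB site, and TATA on the other strand): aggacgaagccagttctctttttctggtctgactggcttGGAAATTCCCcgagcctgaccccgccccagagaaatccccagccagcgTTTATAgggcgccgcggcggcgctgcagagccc
H1-2 (chr6:26056471-26056590, minus strand, CCAAT box): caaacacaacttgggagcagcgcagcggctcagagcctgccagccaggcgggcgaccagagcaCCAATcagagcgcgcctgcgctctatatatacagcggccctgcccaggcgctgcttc
H2BC12 (chr6:27146859-27146978, minus strand, CCAAT boxes on both strands, cAMP response element, octamer and TATA): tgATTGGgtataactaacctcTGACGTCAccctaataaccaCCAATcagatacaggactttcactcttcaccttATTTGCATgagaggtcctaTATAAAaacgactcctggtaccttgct
PLK1 (chr16:23678769-23678888, plus strand, CCAAT box and CHR element): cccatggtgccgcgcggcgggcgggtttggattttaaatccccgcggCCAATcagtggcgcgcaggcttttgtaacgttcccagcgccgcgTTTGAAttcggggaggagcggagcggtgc
RARB (chr3:25428143-25428262, plus strand, CHR element and DR5 element): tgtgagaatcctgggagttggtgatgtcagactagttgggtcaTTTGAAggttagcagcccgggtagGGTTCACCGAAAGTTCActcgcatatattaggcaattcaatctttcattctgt

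Immediate-early genes, which cells switch on within minutes of a growth factor or stress signal, were mostly higher with docetaxel. EGR1, a zinc finger factor of this class (chromosome 5, 138465490 to 138469315, plus strand, GRCh38), stood at 100.1, 114, 98.7 and 79.5 CPM in the 4 Docetaxel libraries, at 4.34, 2.36 and 7.03 CPM in the 3 Adapalene libraries and at 3.20, 1.43 and 1.62 CPM in Vehicle. Every Docetaxel library lay far above every Adapalene library (log2 fold change 4.42, SE 0.24, adjusted p = 3.19e-06 by edgeR). Of the 22 tested genes on the immediate-early list, 13 were called higher with docetaxel (59.1%) and 1 higher with adapalene (4.55%), against 14.5% and 15% of all tested genes. The counts were 14 and 2 without Adapalene replicate 3. The median log2 fold change of the list was 0.70 against -0.0076 over all genes. ATF3, a stress-inducible factor of the ATF family, averaged 298 ± 24.9 CPM with docetaxel (SD, n = 4) and 83.7 ± 26.9 CPM with adapalene (SD, n = 3; log2 fold change 1.83, SE 0.18, adjusted p = 1.32e-04). MYC, a driver of cell growth, averaged 609 ± 30.9 against 281 ± 12.2 CPM, and KLF6, a Kruppel-like factor, 377 ± 24.5 against 164 ± 30.5 CPM. The AP-1 genes split: FOS and JUN were higher with docetaxel (log2 fold changes of 1.25 and 0.92), while JUND, whose product is known as the more constantly expressed JUN protein, was higher with adapalene (log2 fold change -0.65, SE 0.08, adjusted p = 4.47e-04). In the same signalling chain the EGFR ligands AREG and EREG were higher with docetaxel (log2 fold changes of 1.07 and 1.29), as was DUSP10, a phosphatase of stress kinases (1.11). The ERK phosphatases DUSP6, DUSP4 and DUSP5 were not called (-0.04, 0.13 and 0.13), and ERBB3, an EGFR-related receptor, was higher with adapalene (-0.84). Of 22 tested genes of MAP kinase feedback and EGFR ligands, 7 were called higher with docetaxel (31.8%) and 1 higher with adapalene (4.55%). These counts were 11 and 3 without Adapalene replicate 3, and 8 and 2 without Docetaxel replicate 4. The EGR1 promoter printed above holds 2 CArG boxes, the site of serum response factor. A CArG box was found in 2 of 18 promoters of the immediate-early list (11.1%) and in 1.03% of the 11008 tested genes with a promoter sequence.

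Cytokines and chemokines, the secreted signals of inflammation, were another group mostly higher with docetaxel where called. Of 27 tested, 15 were called higher with docetaxel (55.6%) and 2 higher with adapalene (7.41%), against 14.5% and 15% of all tested genes. The median log2 fold change was 0.61. IL6, a cytokine of acute inflammation (chromosome 7, 22725884 to 22732002, plus strand), stood at 74.7, 77.8, 67.6 and 80.6 CPM with docetaxel, at 16.9, 8.47 and 30.4 CPM with adapalene and at 6.69, 5.49 and 6.05 CPM in Vehicle. Both drug groups lay above Vehicle in level and did not overlap with each other, and Adapalene replicate 3 was the highest of its group (log2 fold change 2.02, SE 0.29, adjusted p = 8.75e-04). IL24, a cytokine of the IL10 family, averaged 95.7 ± 21.9 against 10.6 ± 4.11 CPM (log2 fold change 3.17, SE 0.25, adjusted p = 3.56e-05). IL1A, an alarm cytokine that activates NF-kappaB in neighbouring cells, averaged 12.3 ± 0.816 against 2.33 ± 0.469 CPM (log2 fold change 2.40, SE 0.17, adjusted p = 1.70e-05). The neutrophil attractant CXCL8 was the more abundant in counts, at 699, 632, 686 and 829 CPM with docetaxel and 287, 234 and 396 CPM with adapalene (log2 fold change 1.22, SE 0.16, adjusted p = 5.31e-04). CXCL2, CXCL5, CXCL3 and CXCL1, which act on the same receptor, were called in the same direction with log2 fold changes of 1.98, 1.83, 1.32 and 1.26. The Vehicle mean lay below both drug means for 15 of the 17 called genes of this list. The 2 genes higher with adapalene were IL18, an interferon-gamma inducing cytokine of the IL1 family (103 against 129 CPM), and CCL26, an eosinophil attractant (2.53 against 4.83 CPM).

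The NF-kappaB list, which holds the subunits of this inflammatory transcription factor and the inhibitors it switches on, moved alongside. Of 21 tested genes, 15 were called higher with docetaxel by edgeR (71.4%, against 14.5% of all tested genes) and 0 higher with adapalene (16 and 0 by DESeq2, 17 and 0 at an unadjusted p under 0.05). The median log2 fold change was 0.57. The count of 15 was 12 without Docetaxel replicate 1 and 11 without Adapalene replicate 1 or Adapalene replicate 2. It was 17 without Adapalene replicate 3. The 6 uncalled members included RELA (log2 fold change 0.10), the main activating subunit. The feedback inhibitor NFKBIA was at 284, 283, 230.4 and 280.4 CPM with docetaxel and 119, 105 and 138 CPM with adapalene, against 102, 105 and 102 CPM in Vehicle, so that the Adapalene libraries lay near the Vehicle level and the Docetaxel libraries above it (log2 fold change 1.16, SE 0.11, adjusted p = 9.12e-05). TNFAIP3, an enzyme that ends NF-kappaB signalling, averaged 449 ± 43.2 against 133 ± 62.9 CPM (log2 fold change 1.76, SE 0.25, adjusted p = 8.19e-04). TRAF1, an adaptor of TNF receptors, averaged 49.6 ± 4.03 against 12.3 ± 5.93 CPM (log2 fold change 2.01, SE 0.23, adjusted p = 2.59e-04). The subunit genes NFKB1 and RELB were higher with docetaxel by smaller steps (log2 fold changes of 0.88 and 0.87). In IL6, CXCL2, TNFAIP3, TRAF1 and BIRC3 alike, Adapalene replicate 3 was the highest Adapalene library, for example 122, 76.1 and 200.4 CPM for TNFAIP3. A match to the NF-kappaB site was found in 11 of 21 promoters of the cytokine list (52.4%) and in 7 of 19 of the NF-kappaB list (36.8%), against 10.4% of tested genes. The share was 10.1% among all genes called higher with docetaxel and 11% among those called higher with adapalene.

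Interferon-stimulated genes, the antiviral programme, were, where called, also mostly on the docetaxel side. Of 42 tested, 21 were called higher with docetaxel (50%) and 1, GBP2, higher with adapalene (2.38%), against 14.5% and 15% of all tested genes. The median log2 fold change was 0.52. IFIT1, which binds foreign RNA, stood at 189, 154, 198 and 221 CPM with docetaxel, at 94.4, 97.5 and 57.1 CPM with adapalene and at 60.7, 66.8 and 85.6 CPM in Vehicle (log2 fold change 1.20, SE 0.17, adjusted p = 9.29e-04). MX1, an antiviral GTPase, stood at 458, 371, 486 and 568 CPM with docetaxel and at 242, 293 and 103 CPM with adapalene (log2 fold change 1.15, SE 0.28, adjusted p = 0.0116). For both genes the groups did not overlap, but Adapalene replicate 3 was the lowest Adapalene library, the opposite of its place among the inflammatory genes. IRF1, a transcription factor shared by interferon and NF-kappaB responses, averaged 74.6 ± 5.89 against 39.8 ± 5.82 CPM (log2 fold change 0.91, SE 0.10, adjusted p = 2.79e-04). ISG15, a ubiquitin-like effector of the response, was not called by edgeR (log2 fold change 0.38, adjusted p = 0.136). It was called higher with docetaxel in 2 of 17 settings. These were the correction for GC content (0.57, adjusted p = 0.0289 by edgeR) and the edgeR fit with no filter on low counts (adjusted p = 6.60e-05). In the latter its log2 fold change was unchanged at 0.38. Without Adapalene replicate 3 the counts were 20 and 4 and the median was 0.37. GBP2 was not called when any 1 of the other 6 libraries was left out (adjusted p = 0.0557 to 0.167).

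**Figure D3:**
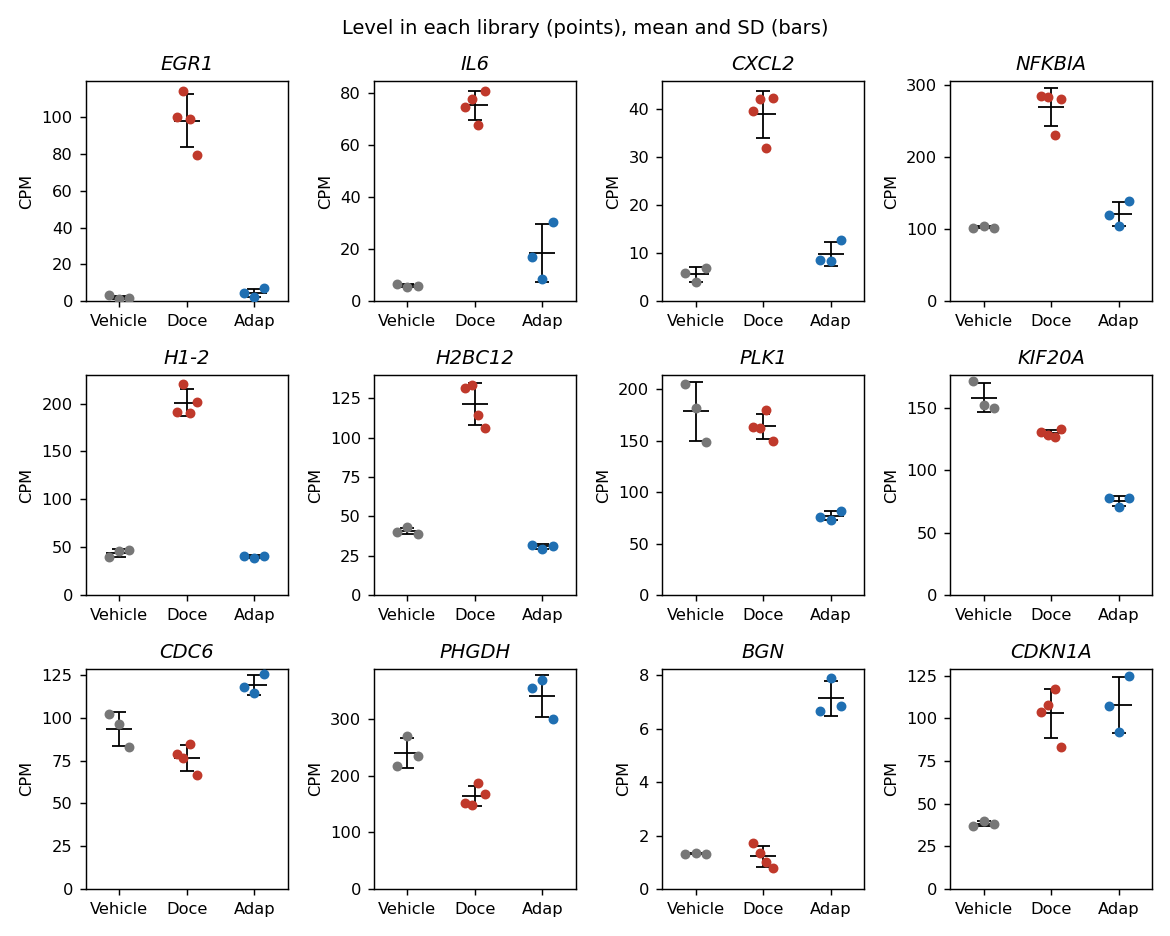
Level (CPM) of 12 genes in each Vehicle, Docetaxel and Adapalene library; points are libraries and bars the mean and SD. EGR1, IL6, CXCL2, NFKBIA, H1-2 and H2BC12 are highest in docetaxel, PLK1 and KIF20A are low in adapalene, CDC6, PHGDH and BGN are higher in adapalene than in docetaxel, and the drug groups overlap for CDKN1A.

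Of the 32 lists, the histone genes had the largest share called in 1 direction (91.4% of those tested, against 14.5% of all genes). Replication-dependent histones package newly made DNA, and their messages are known to end in a stem-loop in place of a poly(A) tail, so that poly(A) selected libraries such as these hold only the part of them that was captured. Of 63 genes fixed, 35 passed the filter on low counts; 32 of them were called higher with docetaxel by edgeR and 0 higher with adapalene (28 and 0 by DESeq2, 32 and 0 at an unadjusted p under 0.05), and the median log2 fold change was 1.88. H1-2, a linker histone (chromosome 6, 26055787 to 26056428, minus strand), stood at 192, 221, 189.7 and 201 CPM with docetaxel, at 40.9, 38.4 and 40.8 CPM with adapalene and at 39.6, 45.9 and 47.3 CPM in Vehicle. For H1-2, Adapalene and Vehicle libraries lay side by side and docetaxel far above both (log2 fold change 2.33, SE 0.08, adjusted p = 9.81e-08 by edgeR, the smallest adjusted p of all tested genes). Over the list this did not hold throughout. The Vehicle mean lay below both drug means for 18 of the 32 called genes and between them for 14. Summed levels of the list were 1751 to 1903 CPM in Docetaxel, 465.1 to 556.7 CPM in Adapalene and 875.5 to 937.2 CPM in Vehicle. H2BC12, a core histone H2B gene, averaged 121 ± 13.4 against 30.9 ± 1.32 CPM, and H2AC6, a core histone H2A gene, 109 ± 7.28 against 31.0 ± 1.95 CPM. H1-4 had the widest contrast of the list, at 13.9, 15.3, 8.06 and 11.9 CPM against 1.01, 0.652 and 1.16 CPM (log2 fold change 3.70, SE 0.29, adjusted p = 3.46e-05). The 3 members not called were H3C1, H2AC20 and H3C6 (log2 fold changes of 0.79, 0.44 and 0.39), all under 7 CPM on average. H3C6 was called higher with docetaxel without Adapalene replicate 3 (0.60, adjusted p = 0.0330) and with both libraries over 2% mitochondrial counts left out (0.62, adjusted p = 0.0379). Histone genes of 1 type are near-identical, so how reads were shared between them is uncertain. Just outside the filter lay H2AC14 and H3C12, with at most 18 counts in any of the 7 libraries. The printed H1-2 and H2BC12 promoters show the CCAAT box common to this family: it was found in 30 of 33 histone promoters (90.9%) against 36.8% of tested genes, with the TATA motif in 23 (69.7% against 5.96%) and the octamer in 16 (48.5% against 1.35%).

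Genes of mitosis that were called were mostly higher with docetaxel. PLK1, the kinase that drives entry into and passage through mitosis (chromosome 16, 23677656 to 23690367, plus strand), stood at 163, 163, 179 and 149.8 CPM with docetaxel, at 75.4, 73.3 and 81.8 CPM with adapalene and at 205, 182 and 148 CPM in Vehicle. The Docetaxel libraries fell within the Vehicle range, while all Adapalene libraries lay well below it (log2 fold change 1.09, SE 0.08, adjusted p = 1.90e-05). AURKA, a spindle kinase, CDC20, an activator of the anaphase-promoting complex, and CCNB1, the mitotic cyclin, averaged 198 ± 8.57 against 107 ± 8.0, 228 ± 15.9 against 127 ± 11.4 and 299 ± 12.4 against 171 ± 13.8 CPM (adjusted p = 3.56e-05, 1.28e-04 and 8.42e-05). The proliferation marker MKI67 averaged 494 ± 23.6 against 351 ± 45.0 CPM, both under the Vehicle mean of 596 CPM (log2 fold change 0.49, SE 0.09, adjusted p = 0.00281). Of 27 mitotic kinases and cyclins, 12 were called higher with docetaxel (44.4%) and 3 higher with adapalene (11.1%), against 14.5% and 15% of all tested genes. The 3 were CDK1, CDC25B and MYBL2, with log2 fold changes of -0.27, -0.29 and -0.31. None of those 3 was called without Docetaxel replicate 1 (adjusted p = 0.0803, 0.117 and 0.102), without Docetaxel replicate 2 (0.0811, 0.113 and 0.0937) or without Adapalene replicate 1 (0.0671, 0.128 and 0.124). Of 28 spindle motors and assembly factors, 15 were called higher with docetaxel (53.6%) and 1 (3.57%), the microtubule destabiliser STMN1 (-0.44), higher with adapalene. These counts were 18 and 2 without Adapalene replicate 3. KIF20A, a kinesin of cytokinesis, averaged 129.6 ± 2.69 against 75.4 ± 3.98 CPM (log2 fold change 0.78, SE 0.06, adjusted p = 3.82e-05). The Vehicle mean lay above both drug means for 14 of the 15 called mitotic kinases and cyclins and for 14 of the 16 called spindle genes. In bulk RNA, fewer cells in mitosis and less message per cell cannot be told apart.

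Kinetochore genes were called in both directions, at shares of 25% and 17.9% that lie near those of all tested genes (14.5% and 15%). Of 28 tested, 7 were called higher with docetaxel, among them the motor CENPE (108 ± 6.24 against 58.5 ± 10.0 CPM), the centromeric histone CENPA (0.81) and CDCA8 (0.60), a subunit of the chromosomal passenger complex. The 5 higher with adapalene were SPC24, CENPU, CENPK, CENPH and DSN1, structural subunits of the kinetochore, with log2 fold changes of -0.73, -0.44, -0.43, -0.40 and -0.35; CENPH was not called without Docetaxel replicate 1 or 2 or Adapalene replicate 1 or 2 (adjusted p = 0.0647 to 0.0881). In the cohesin and condensin list STAG1, a cohesin subunit, was higher with docetaxel, at 70.2, 68.4, 61.0 and 55.0 CPM against 28.9, 25.7 and 33.8 CPM, with Vehicle at 74.1, 61.4 and 61.1 CPM (log2 fold change 1.11, SE 0.11, adjusted p = 1.66e-04). Its paralogue STAG2 was not called (149 ± 5.92 against 143 ± 19.3 CPM, 95% interval of the log2 fold change -0.13 to 0.26). The cohesin loader NIPBL was also higher with docetaxel (0.61). Of 23 tested genes 6 were called on that side (26.1%) and 3 on the adapalene side (13%), and 4 and 5 when the fit was corrected for GC content. Without Docetaxel replicate 1, without Docetaxel replicate 2 and without Adapalene replicate 1 they were 4 and 1 each time. The CHR element, the hexamer TTTGAA that marks many late cell cycle promoters, was found in 18 of 25 spindle promoters (72.0%) and 11 of 21 promoters of mitotic kinases and cyclins (52.4%), against 9.74% of tested genes and 1 of 35 DNA replication promoters (2.86%). The printed PLK1 promoter holds it close to the start, downstream of a CCAAT box.

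DNA replication genes that were called went the other way. Of 40 tested, 20 were called higher with adapalene by edgeR (50%, against 15% of all tested genes) and 0 higher with docetaxel (19 and 0 by DESeq2, 24 and 0 at an unadjusted p under 0.05). The median log2 fold change was -0.25, and without Adapalene replicate 1 the count of 20 was 13. CDC6, which loads the replicative helicase onto origins, stood at 78.6, 76.3, 84.6 and 66.6 CPM with docetaxel, at 118, 114 and 126 CPM with adapalene and at 102, 96.5 and 82.7 CPM in Vehicle. The drug groups did not overlap and the Vehicle values lay largely between them (log2 fold change -0.64, SE 0.08, adjusted p = 5.15e-04). PRIM1, the catalytic subunit of primase, averaged 13.9 ± 0.771 against 21.8 ± 0.500 CPM, and RRM2, a subunit of ribonucleotide reductase, 322 ± 33.0 against 464 ± 69.9 CPM (adjusted p = 8.00e-04 and 0.00553). The helicase genes MCM2 to MCM7 did not share this: their log2 fold changes ran from -0.08 for MCM4 to 0.08 for MCM6, and none was called. MCM6 averaged 125 ± 7.36 and 118 ± 5.45 CPM in the drug groups and 202 ± 15.2 CPM in Vehicle, so that both drug groups stood below Vehicle at nearly 1 level (95% interval of the log2 fold change -0.07 to 0.23). The same held for LMNB1, a nuclear lamina gene known to be lost in senescence (96.4 ± 2.25 and 96.3 ± 6.96 CPM, Vehicle 163 ± 18.5 CPM; 95% interval -0.15 to 0.15). Among 25 G1 and S phase regulators, 8 were called higher with adapalene (32%) and 3 higher with docetaxel (12%), against 15% and 14.5% of all tested genes. The count of 8 was 4 without Docetaxel replicate 1, without Docetaxel replicate 2 or without Adapalene replicate 1. CCNE2, a cyclin of S phase entry, was higher with adapalene (22.9 ± 2.37 against 42.0 ± 9.63 CPM; log2 fold change -0.88, SE 0.14, adjusted p = 0.00152), and CDK6, a G1 kinase, higher with docetaxel (0.52). CDKN1A, the p21 inhibitor of cyclin-dependent kinases, stood at 104, 108, 117 and 83.4 CPM with docetaxel and at 107, 91.7 and 125 CPM with adapalene, against 37.0, 39.9 and 37.9 CPM in Vehicle. The drug groups overlapped, both above Vehicle, with a 95% interval of their log2 fold change of -0.34 to 0.20 (adjusted p = 0.715).

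**Figure D4:**
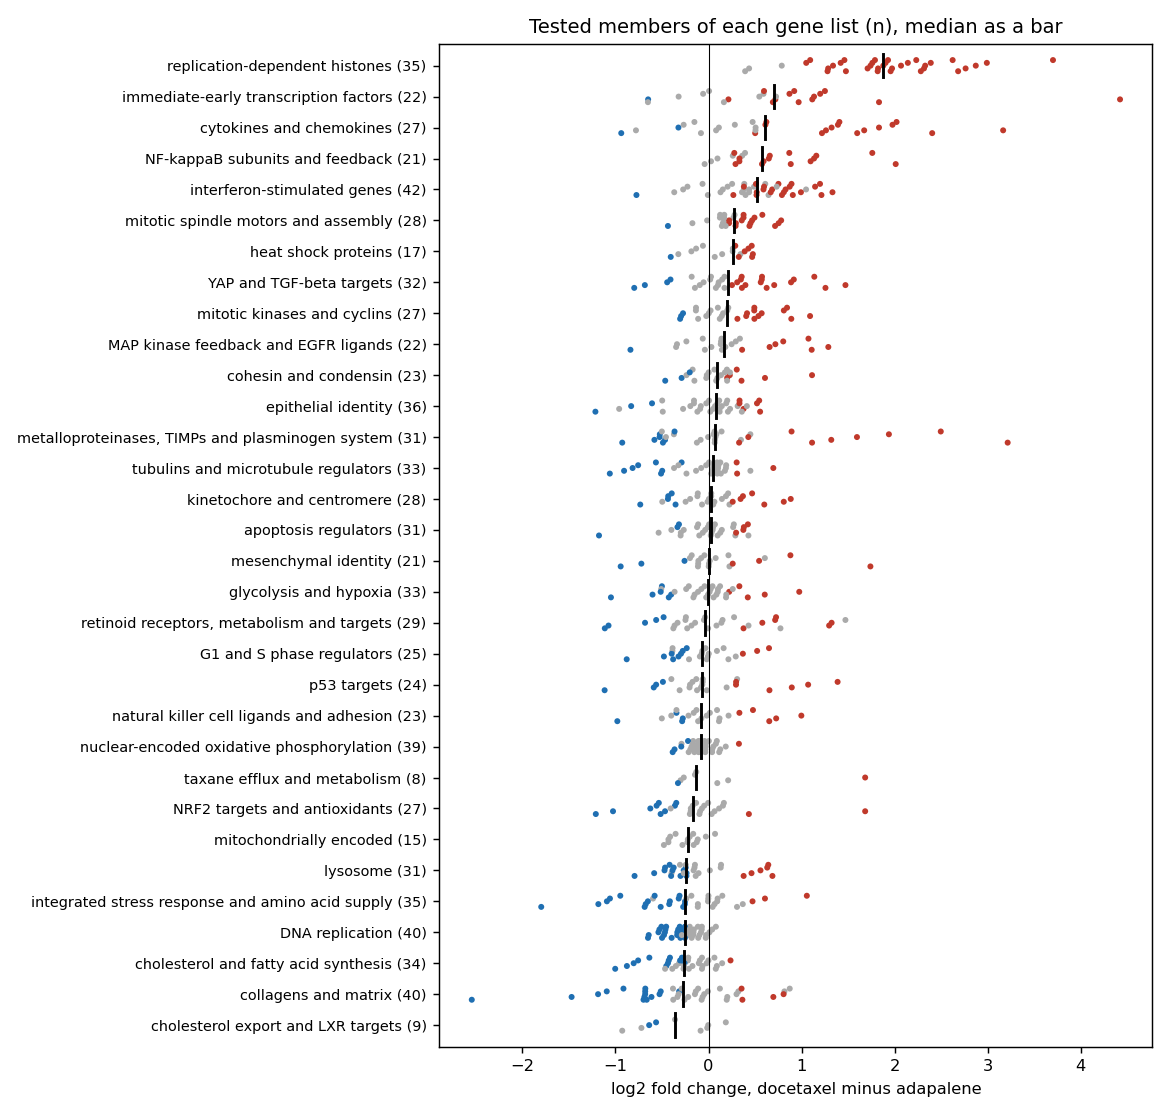
Log2 fold change (docetaxel minus adapalene) of each tested member of the 32 gene lists; 1 point per gene, red for called higher with docetaxel, blue for called higher with adapalene, grey for not called, and a black bar at the list median. Medians run from 1.88 for the histones to -0.36 for the 9 cholesterol export genes.

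Genes of serine and amino acid supply lay mostly on the adapalene side where they differed. Of 35 tested genes of the integrated stress response and amino acid supply, 17 were called higher with adapalene (48.6%) and 3 higher with docetaxel (8.57%). The shares of all tested genes were 15% and 14.5%, and the counts were 17 and 5 without Adapalene replicate 3. PHGDH, the first enzyme of serine synthesis (chromosome 1, 119648411 to 119744226, plus strand), stood at 152, 148, 187 and 168 CPM with docetaxel, at 354, 369 and 299 CPM with adapalene and at 217, 269.5 and 236 CPM in Vehicle. All Adapalene libraries lay above Vehicle and all Docetaxel libraries below it (log2 fold change -1.06, SE 0.10, adjusted p = 8.92e-05). PSAT1, the next enzyme of that pathway, averaged 61.0 ± 5.71 against 118 ± 12.5 CPM (log2 fold change -0.95, SE 0.09, adjusted p = 1.32e-04). CBS, which turns homocysteine to cystathionine, was low in both but higher with adapalene (1.21 ± 0.408 against 4.23 ± 0.711 CPM; log2 fold change -1.80, SE 0.27, adjusted p = 0.00108). ATF4, the transcription factor of the response, and its target ASNS, asparagine synthetase, were not called by edgeR (log2 fold changes of -0.18 and 0.15). ATF4 was called higher with adapalene by DESeq2 (adjusted p = 0.0326), with the filter of at least 50 counts in 3 libraries (edgeR, 0.0484) and without Adapalene replicate 2 (edgeR, 0.0393). PPP1R15A and DDIT3, stress genes that lift the translation block and promote cell death, were higher with docetaxel (388 ± 54.1 against 187 ± 55.9 and 24.4 ± 1.48 against 16 ± 2.59 CPM).

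Lipid, lysosomal and antioxidant genes leaned the same way with smaller differences. Of 34 cholesterol and fatty acid synthesis genes, 12 were called higher with adapalene (35.3%) and 1 with docetaxel (2.94%), against 15% and 14.5% of all tested genes. Without Adapalene replicate 3 the counts were 19 and 0. The count of 12 was 6 without Docetaxel replicate 1 and 5 without Adapalene replicate 1, and 8 without Docetaxel replicate 2. Among called genes of this list the Vehicle mean lay between the drug means for 7 and above both for 6. Summed levels were 6513 to 6883 CPM in Vehicle, 4904 to 6259 CPM in Adapalene and 4251 to 5038 CPM in Docetaxel. TM7SF2, a sterol reductase, averaged 15.6 ± 1.79 against 31.4 ± 7.06 CPM (log2 fold change -1.0, SE 0.15, adjusted p = 0.00103). Of 31 lysosomal genes, 13 were called higher with adapalene (41.9%, and 8 genes without Adapalene replicate 1) and 6 higher with docetaxel (19.4%). The former were led by GAA, the glycogen-degrading glucosidase (83.4 ± 11.5 against 145 ± 37.0 CPM), and the latter by the protease CTSS (0.69). CTSS was not called without Docetaxel replicate 1 or 2 or Adapalene replicate 1 or 2 (adjusted p = 0.0583 to 0.112 by edgeR). Of 27 NRF2 targets, 9 were called higher with adapalene (33.3%), among them NQO1, a quinone reductase (115 ± 7.57 against 169 ± 7.16 CPM), and 2 with docetaxel (7.41%). HMOX1 and GCLM, among the best known targets of NRF2, were not called (-0.05 and -0.00). Of 39 nuclear-encoded oxidative phosphorylation genes, 4 were called higher with adapalene (10.3%) and 1 with docetaxel (2.56%), shares below those of all tested genes (15% and 14.5%). The count of 4 was 2 without Docetaxel replicate 1, Docetaxel replicate 2, Adapalene replicate 1 or Adapalene replicate 2, and 6 without Docetaxel replicate 3 or Adapalene replicate 3. Of 15 mitochondrially encoded genes 0 were called by edgeR, 0 by DESeq2 and 0 had an unadjusted p under 0.05, and with no filter on low counts edgeR called 8 higher with adapalene. Summed, they spanned 7319 to 25860 CPM in Docetaxel and 15090 to 27880 CPM in Adapalene. Of 33 glycolysis and hypoxia genes, 5 were called higher with docetaxel (15.2%) and 6 higher with adapalene (18.2%), near the shares of all tested genes (14.5% and 15%). The counts were 2 and 6 without Docetaxel replicate 1, 2 and 5 without Docetaxel replicate 2, 1 and 4 without Adapalene replicate 1, 3 and 5 without Adapalene replicate 2 and 5 and 11 without Adapalene replicate 3. Of 9 tested genes of cholesterol export, 2 were called higher with adapalene (22.2%), APOE (-0.56) and LPCAT3 (-0.64). APOE was not called after correction for GC content (adjusted p = 0.273 by edgeR). The count was 1 without Docetaxel replicate 1, Docetaxel replicate 2, Adapalene replicate 1 or Adapalene replicate 2, and 4 without Adapalene replicate 3.

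Matrix genes were higher with adapalene where they differed in collagens and basement membrane, and higher with docetaxel in some laminin chains and proteases. BGN, a small proteoglycan that binds collagen (chromosome X, 153494939 to 153509554, plus strand), stood at 1.73, 1.34, 1.02 and 0.796 CPM with docetaxel, at 6.65, 7.90 and 6.86 CPM with adapalene and at 1.31, 1.35 and 1.31 CPM in Vehicle. Docetaxel and Vehicle libraries shared a low level and adapalene stood above both (log2 fold change -2.54, SE 0.24, adjusted p = 9.73e-05). HSPG2, the basement membrane proteoglycan perlecan, averaged 109.7 ± 15.5 against 249.8 ± 43.3 CPM (log2 fold change -1.19, SE 0.13, adjusted p = 1.97e-04). COL6A3, a chain of collagen VI, averaged 196 ± 27.8 against 419 ± 100.1 CPM, with Vehicle at 387 ± 21.2 CPM, near the Adapalene level (log2 fold change -1.09, SE 0.15, adjusted p = 8.00e-04). Of 40 collagen and matrix genes, 15 were called higher with adapalene (37.5%) and 4 higher with docetaxel (10%), against 15% and 14.5% of all tested genes. Among the 4 were the laminin chains LAMB3 and LAMA3 and the matricellular protein THBS1 (log2 fold changes of 0.70, 0.35 and 0.81).

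TIMP1, the gene the hairpin targets, stood at 56.8, 62.2, 70.8 and 65.1 CPM with docetaxel, at 99.1, 106 and 69.8 CPM with adapalene and at 55.2, 65.2 and 62.3 CPM in Vehicle. It was called higher with adapalene (log2 fold change -0.53, SE 0.13, adjusted p = 0.0122), but Adapalene replicate 3 lay within the Docetaxel range, and without Adapalene replicate 1 it was not called (adjusted p = 0.0618). TIMP2, a related inhibitor, was higher with adapalene without overlap (261 ± 4.05 against 375 ± 15.9 CPM; log2 fold change -0.52, SE 0.06, adjusted p = 3.01e-04). Among the proteases, MMP9, a gelatinase, averaged 6.34 ± 0.881 against 2.11 ± 1.21 CPM (log2 fold change 1.59, SE 0.30, adjusted p = 0.00367), and ADAMTS6, a secreted metalloproteinase, 71.9 ± 14.6 against 12.8 ± 9.05 CPM (log2 fold change 2.5, SE 0.35, adjusted p = 8.13e-04). MMP3, stromelysin, was low throughout, at 2.80, 3.89, 1.19 and 2.08 CPM against 0.217, 0 and 0.579 CPM (log2 fold change 3.21, SE 0.63, adjusted p = 0.00420). PLAT, tissue plasminogen activator, was higher with adapalene, at 464, 412, 471 and 493 CPM against 884, 849.6 and 892 CPM (log2 fold change -0.93, SE 0.07, adjusted p = 3.56e-05). PLAU, the urokinase activator, and its receptor PLAUR were higher with docetaxel by less (0.43 and 0.33). PLAUR was not called without Adapalene replicate 1 (adjusted p = 0.0501). In all, 9 of 31 tested genes of this list were called higher with docetaxel and 7 higher with adapalene.

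YAP and TGF-beta targets were called higher with docetaxel in 16 of 32 genes (50%) and higher with adapalene in 4 (12.5%), against 14.5% and 15% of all tested genes. The counts were 9 and 4 without Adapalene replicate 1. CCN2, a matricellular growth factor that YAP induces, averaged 124 ± 12.3 against 56.6 ± 20.3 CPM, with Vehicle between at 76.4 ± 7.0 CPM (log2 fold change 1.14, SE 0.18, adjusted p = 0.00158). NUAK2, a kinase, and INHBA, an activin subunit, were in the same direction (1.47 and 0.89). TGFB1 and LTBP1, the ligand and its latent binding protein, were higher with adapalene (-0.41 and -0.68); TGFB1 was not called after correction for GC content (log2 fold change -0.22, adjusted p = 0.0730).

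Retinoid genes, the group closest to the action of adapalene, were mixed: of 29 tested, 6 were called higher with docetaxel (20.7%) and 5 higher with adapalene (17.2%), near the shares of all tested genes, and without Adapalene replicate 3 the counts were 8 and 8. They were 5 and 2 without Docetaxel replicate 1, 5 and 3 without Docetaxel replicate 2 and 4 and 1 without Adapalene replicate 1. RARB, a retinoic acid receptor that retinoids are known to induce in many cells through the DR5 element of its own promoter, was lower with adapalene. It stood at 3.38, 3.25, 4.92 and 3.00 CPM with docetaxel, at 1.59, 1.06 and 1.74 CPM with adapalene and at 2.84, 3.35 and 2.37 CPM in Vehicle, so that the Adapalene libraries lay below both other groups (log2 fold change 1.30, SE 0.27, adjusted p = 0.00546). RARA differed less (31.6 ± 1.01 against 24.4 ± 0.965 CPM; log2 fold change 0.38, SE 0.08, adjusted p = 0.00530), and RARG was not called (47.8 ± 4.15 against 48.0 ± 6.16 CPM, 95% interval of the log2 fold change -0.23 to 0.22). DHRS3, a retinaldehyde reductase known to respond to retinoids, averaged 44.1 ± 4.26 against 57.3 ± 15 CPM and was not called (log2 fold change -0.38, SE 0.15, adjusted p = 0.0795). Without Adapalene replicate 3 it was called higher with adapalene (log2 fold change -0.55, adjusted p = 0.00109). RBP4, a carrier of retinol, was higher with adapalene (2.98 ± 0.525 against 6.34 ± 0.539 CPM; log2 fold change -1.07, SE 0.18, adjusted p = 0.00199). The DR5 element printed for RARB, a direct repeat of hexamers with a 5-base gap, was found in 22 of 27305 RefSeq promoters (0.0806%). Of the 7 tested genes that carry it, BATF2, RARB and PHF8 were called, each higher with docetaxel, a side on which 14.5% of all tested genes were called. The others were not called, with log2 fold changes from -0.065 to 0.15. So few genes give no result about DR5 promoters as a class. BATF2, an interferon-induced factor, averaged 9.34 ± 1.41 against 3.39 ± 0.394 CPM.

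Genes of tubulins, whose products docetaxel binds, and of microtubule regulators were called higher with docetaxel in 9.09% and higher with adapalene in 24.2% of tested members, against 14.5% and 15% of all tested genes. TUBB4A, a beta-tubulin typical of neurons, stood at 50.6, 55.1, 56.3 and 57.5 CPM with docetaxel and at 119, 115 and 109.7 CPM with adapalene, with Vehicle at 65.5, 76.3 and 59.5 CPM (log2 fold change -1.06, SE 0.07, adjusted p = 1.02e-05). VASH1, a tubulin carboxypeptidase, and MAP1A, a microtubule-binding protein, were also higher with adapalene (-0.91 and -0.82), and MAP7, a kinesin-1 cofactor, higher with docetaxel (0.70). TUBB3, an isotype often studied in taxane resistance, was not called (2.08, 3.96, 1.70 and 2.27 CPM against 1.52, 1.63 and 2.40 CPM; 95% interval of the log2 fold change -0.26 to 1.16). Of 33 tested genes, 8 were called higher with adapalene and 3 higher with docetaxel, and with both libraries over 2% mitochondrial counts left out 9 on each side. Without Docetaxel replicate 4 alone they were 8 and 5. ABCB1, the efflux pump for taxanes, had at most 16 counts in any of the 7 libraries and was not tested, and ABCC2, another drug exporter, was higher with docetaxel (6.25 ± 1.11 against 1.94 ± 0.712 CPM; log2 fold change 1.68, SE 0.26, adjusted p = 0.00123). Of 8 tested genes of taxane efflux and metabolism ABCC2 was the 1 called on that side (12.5%), and ABCC10 (-0.33) the 1 higher with adapalene (12.5%). Without Docetaxel replicate 1, 2 or 3 or Adapalene replicate 1 or 3, ABCC10 was not called.

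Of tested members, 12.9% of apoptosis regulators, 25% of p53 targets and 41.2% of heat shock genes were called higher with docetaxel, and 9.68%, 16.7% and 5.88% higher with adapalene, against 14.5% and 15% of all tested genes. Of 31 apoptosis regulators 4 were called higher with docetaxel and 3 higher with adapalene (2 and 2 without Adapalene replicate 1, 7 and 6 without Adapalene replicate 3). BMF, a BH3-only activator of cell death, was higher with adapalene at 15.6, 17.5 and 12.1 CPM against 6.18, 7.99, 6.03 and 6.37 CPM with docetaxel (log2 fold change -1.18, SE 0.16, adjusted p = 6.31e-04). Of 24 p53 targets, 6 were called higher with docetaxel and 4 higher with adapalene; PC3 cells are known to lack working p53. GADD45A, a stress sensor, was higher with docetaxel (381 ± 56.4 against 146 ± 71.5 CPM; log2 fold change 1.39, SE 0.26, adjusted p = 0.00314), and TP53INP1, an autophagy and stress gene, higher with adapalene (7.09 ± 1.81 against 15.5 ± 2.56 CPM; log2 fold change -1.12, SE 0.19, adjusted p = 0.00200). Of 17 heat shock genes, 7 were called higher with docetaxel, including the cytosolic chaperones HSPA8 and HSP90AA1 and the mitochondrial HSPE1 (0.39, 0.29 and 0.48). HSP90B1, the chaperone of the endoplasmic reticulum, was the 1 higher with adapalene (-0.41). For 6 of the called heat shock genes the Vehicle mean lay above both drug means, and for 2 between them. Summed levels of this list were 12910 to 16190 CPM in Vehicle, 11470 to 13980 CPM in Docetaxel and 10170 to 11090 CPM in Adapalene. HSP90AA1 was not called without any 1 of Docetaxel replicates 1 to 3 or Adapalene replicates 1 and 2, nor after correction for GC content (adjusted p = 0.0542 to 0.129). The counts were 9 and 2 without Docetaxel replicate 4 and without Adapalene replicate 3. Among ligands and receptors that natural killer cells and T cells read, CD274, which encodes PD-L1, was higher with docetaxel (46.9 ± 4.22 against 28.4 ± 7.26 CPM; log2 fold change 0.73, SE 0.14, adjusted p = 0.00443). Of 23 tested genes of that list 5 were called higher with docetaxel (21.7%) and 4 higher with adapalene (17.4%), not far from the 14.5% and 15% of all tested genes. The counts were 1 and 1 without Docetaxel replicate 1, Adapalene replicate 1 or Adapalene replicate 2, 3 and 1 without Docetaxel replicate 2 and 8 and 5 without Adapalene replicate 3.

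Epithelial and mesenchymal identity genes were called about as often as all tested genes (16.7% and 8.33% of the epithelial list and 19% and 14.3% of the mesenchymal list, higher with docetaxel and with adapalene, against 14.5% and 15%). EPCAM, an epithelial adhesion protein, averaged 242 ± 15.3 against 187 ± 11.6 CPM (log2 fold change 0.38, SE 0.07, adjusted p = 0.00416), and VIM, the mesenchymal filament vimentin, 1407 ± 79.4 against 1451 ± 64.1 CPM (95% interval of the log2 fold change -0.21 to 0.12). ZEB2, a repressor of epithelial genes, was higher with docetaxel (15.3 ± 0.992 against 4.59 ± 1.76 CPM; log2 fold change 1.74, SE 0.21, adjusted p = 3.36e-04), and FSTL1, a secreted glycoprotein, higher with adapalene (-0.72). Of 21 mesenchymal genes 4 were called higher with docetaxel and 3 higher with adapalene; the count of 3 was 1 without Docetaxel replicate 2, Docetaxel replicate 4 or Adapalene replicate 1. Of 36 epithelial genes 6 were called higher with docetaxel and 3 higher with adapalene, and without Adapalene replicate 3 the counts were 6 and 8. MUC13, a membrane mucin, stood at 4.31, 4.67, 3.82 and 3.98 CPM with docetaxel and 5.06, 5.29 and 4.88 CPM with adapalene, both above Vehicle at 0.727, 0.926 and 0.998 CPM, and was not called (95% interval of the log2 fold change -0.62 to 0.08). Of 8 leukocyte markers, 2 were tested, with a summed level of all 8 of 6.76 to 8.77 CPM in Docetaxel and 2.82 to 3.88 CPM in Adapalene. CD3E and NKG7 were at 0 counts in all 7 libraries. ITGAM, an integrin of myeloid cells, was called higher with docetaxel (5.2 ± 0.673 against 1.22 ± 0.594 CPM). Of 8 fibroblast markers, 3 were tested and FAP alone was called, at 0.965 against 0.158 CPM; the summed level of all 8 was 5.01 to 7.36 CPM in Docetaxel and 3.55 to 4.48 CPM in Adapalene. Of 6 endothelial markers 2 were tested, and KDR was called higher with adapalene (1.74 ± 0.280 against 3.88 ± 1.14 CPM; sums over the list of 11.5 to 15.7 CPM in Docetaxel and 9.92 to 26.8 CPM in Adapalene). Of 6 neuroendocrine markers 2 were tested, and ENO2, an enolase that epithelial cells also express, was called higher with adapalene (-0.60; sums of 71.5 to 87.0 CPM in Docetaxel and 97.5 to 133 CPM in Adapalene), with CHGA and INSM1 at 0 counts. Of 8 prostate luminal genes 5 were tested, and 3 were called higher with adapalene, among them FOLH1 and STEAP2 (-1.16 and -0.44; sums of 60.3 to 70.8 CPM in Docetaxel and 81.4 to 92.9 CPM in Adapalene). FOLH1 was not called without Adapalene replicate 1 (adjusted p = 0.0619). The part of other cell types in the results was not tested.

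Outside the lists, the genes with the widest contrast included DHRS2, a mitochondrial short-chain dehydrogenase. It stood at 82.2, 81.5, 73.2 and 72.2 CPM with docetaxel, at 5.86, 4.15 and 9.26 CPM with adapalene and at 19.5, 15.8 and 14.8 CPM in Vehicle, so that the drugs lay on opposite sides of Vehicle (log2 fold change 3.59, SE 0.19, adjusted p = 2.13e-06). On the adapalene side, LINC01133, a long noncoding RNA, stood at 29.1, 27.0 and 29.4 CPM against 8.48, 7.14, 11.3 and 9.31 CPM with docetaxel (log2 fold change -1.66, SE 0.13, adjusted p = 3.56e-05). C1QL1, a secreted C1q-like protein, averaged 4.62 ± 0.376 against 15 ± 1.67 CPM (log2 fold change -1.71, SE 0.14, adjusted p = 3.56e-05), and YPEL3, a growth suppressor of the yippee family, 3.63 ± 0.449 against 13 ± 1.31 CPM (log2 fold change -1.83, SE 0.15, adjusted p = 3.82e-05). ATP2A3, a calcium pump of the endoplasmic reticulum, averaged 1.12 ± 0.631 against 5.13 ± 1.01 CPM (log2 fold change -2.15, SE 0.34, adjusted p = 0.00146).

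Properties of the genes that no list used also differed between the sides. When the protein-coding genes were split into 5 quintiles by the GC content of their transcripts, the quintile of highest GC (median 62.0%) had 8.38% of its genes called higher with docetaxel and 30.8% called higher with adapalene. The quintile of lowest GC (median 38.6%) had 19.2% and 9.94%. By library, the median log2 level of the GC-rich quintile minus that of the GC-poor quintile, each gene set against its mean over the 7 libraries, was -0.13, -0.081, -0.056 and -0.092 in the Docetaxel libraries and 0.14, 0.16 and 0.051 in the Adapalene libraries. In Vehicle it was -0.027, 0.062 and -0.12. With a correction for GC content in the fit 4229 genes were called, 3502 of them among the 4497. Gene length showed a smaller trend in the other direction: 13% and 19.4% of the shortest quintile, and 18.4% and 13.3% of the longest, were called higher with docetaxel and with adapalene. By chromosome, the shares were 20.5% and 4.94% on chromosome 13 and 8.16% and 22.6% on chromosome 19.

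**Figure D5:**
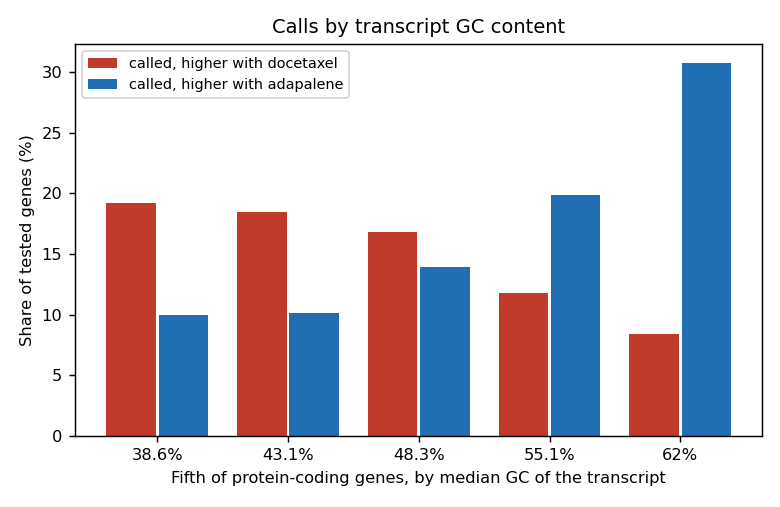
Share (%) of tested protein-coding genes called in each direction, by quintile of transcript GC content, with the median GC of each quintile on the x axis. Calls higher with adapalene run from 9.94% in the GC-poor quintile to 30.8% in the GC-rich quintile, and calls higher with docetaxel from 19.2% to 8.38%.

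Gene families named by symbol are given beside the 14.5% and 15% of all tested genes called higher with docetaxel and with adapalene. Of 429 tested ZNF zinc finger genes, 67 were called higher with docetaxel (15.6%) and 18 higher with adapalene (4.2%), and of 51 USP deubiquitinases 18 (35.3%) and 4 (7.84%). Of 212 SLC solute carriers 10 were called higher with docetaxel (4.72%) and 53 higher with adapalene (25%). Of 711 long intergenic noncoding RNAs 14.5% were called higher with docetaxel and 7.59% higher with adapalene.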

How the data were processed

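Polyadenylated RNA of PC3 cells with the TIMP1 hairpin was sequenced as stranded single reads of 120 bp, per the labels' protocols. Tools listed in the submitters' processing notes are FastQC, STAR 2.7.10a and DESeq2, with the build GRCh38.p13 and no roles. The sources used here do not give how reads were counted (program, strand, reads with several matches), and overlapping, antisense and near-identical genes are therefore uncertain. The authors deposited raw counts per gene, for 67882 Ensembl identifiers; a symbol was matched for 42045 and GENCODE 29 coordinates (GRCh38) for 58366.

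The 4 Docetaxel libraries were tested against the 3 Adapalene libraries in R 4.3.3 with edgeR 4.0.16 (filterByExpr by group with a minimum count of 10 and a minimum total of 15, TMM scaling, glmQLFit and glmQLFTest, Benjamini-Hochberg adjustment over 15261 genes, calls at an adjusted p under 0.05). CPM was computed on TMM-scaled library sizes, and ± is the SD of replicates. The fit was tested on simulated counts before use. Libraries of 1 group differed by more than sampling noise (chi-square per degree of freedom of 2.35 to 22.6), so each counted as 1 sample.

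The comparison, the 32 gene lists and the 6 marker sets were chosen with earlier results of these data known. Named genes were the 12 largest called differences per direction (with a symbol, at least 5 CPM in the higher group and no overlap of groups), up to 4 called members of each list per direction, a set of anchor genes, and members that give a range or were not called; not every gene this rule allows is described. BATF2, PHF8, MSMP and AGR2 fall outside it and were named after their values were seen. Alternatives were DESeq2 1.42.0, all 13 libraries in the fit, other scalings and filters, the replicate number as a block, each library left out, libraries over 2% mitochondrial counts left out and, chosen after seeing the data, a correction for GC content (14880 tested genes, 97.5%, had a value). Promoter sequences are from RefSeq (GRCh38.p14), matched by symbol for 11008 tested genes. Results for some genes are not reported here.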

Additional observations from a re-analysis of the deposited data

Results flagged for a closer look

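For 11 of the 265 named genes, 1 of the 4 Docetaxel libraries lay far from the other 3; chance alone sets about 1 in 20 such groups apart. Of these, 7 were in Docetaxel replicate 4, 3 in replicate 3 and 1 in replicate 2. AKR1C3, an aldo-keto reductase, was high in Docetaxel replicate 4, at 5.70 CPM against 4.88 to 4.92 CPM. CCNG1, cyclin G1, was high in that library, at 96.1 CPM against 84.8 to 86.7 CPM. CCNG2, cyclin G2, was high in that library, at 28.0 CPM against 18.4 to 19.9 CPM. GAA, the lysosomal glucosidase, was high in that library, at 100.5 CPM against 76.4 to 79.5 CPM. H3C1, a core histone, was low in that library, at 0.674 CPM against 1.15 to 1.20 CPM. HSP90AA1, a cytosolic chaperone, was low in that library, at 2522 CPM against 2995 to 3034 CPM. MSMP, the secreted microseminoprotein, was high in that library, at 131 CPM against 73.2 to 81.7 CPM. INHBA, an activin subunit, was low in Docetaxel replicate 3, at 502 CPM against 586 to 598 CPM. KRT19, a keratin, was high in that library, at 1185 CPM against 976 to 1007 CPM. NFKBIA, the NF-kappaB inhibitor, was low in that library, at 230.4 CPM against 280.4 to 284 CPM. MUC1, a membrane mucin, was low in Docetaxel replicate 2, at 6.44 CPM against 7.55 to 7.72 CPM. Docetaxel replicate 4 also had 2.62% mitochondrial counts, against 0.722 to 1.72% in the other 3; the part of this in its values was not tested.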

How the results depend on the processing

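Among genes called both as reported and under an alternative, 0 had an opposite sign in any alternative run. Calls totalled 4291 with DESeq2, 4678 with all 13 libraries in the fit, 4499 and 4502 with RLE and upper quartile scaling and 4229 after GC correction, against 4497. With no filter on low counts 1257 genes, and with at least 50 counts in 3 libraries 315 genes, were called at least 2-fold apart, against 797. Leaving out both libraries over 2% mitochondrial counts gave 6720 calls, 1314 of them at least 2-fold. With 1 library left out, calls ranged from 2329 to 6104, those higher with docetaxel from 1139 to 3044, those higher with adapalene from 1190 to 3060 and those at least 2-fold apart from 567 to 1207, lowest without Adapalene replicate 1 and highest without Adapalene replicate 3. The replicate block gave 2179 calls, 1112 higher with docetaxel and 1067 higher with adapalene, 514 of them at least 2-fold. Libraries with the same number did not deviate together (r = -0.094, -0.34 and -0.23) and none correlated best with its own number. The deviations were taken from the means of small groups, so these values cannot settle whether the numbers pair the libraries. The cause of the changes in calls was not tested. Of 237 named genes that were called, 161 were called under every alternative that gave them a value. The log2 fold changes of some genes that were not called changed sign. With both libraries over 2% mitochondrial counts left out, they were -0.035 for CDH1, 0.14 for CDKN1A, -0.097 for DUSP5, -0.20 for ESRP1, 0.087 for GCLM, 0.11 for HMOX1, -0.062 for LMNB1, -0.026 for STAG2 and 0.018 for VIM. After GC correction, they were 0.017 for CDKN1A, -0.084 for ESRP1, 0.038 for HMOX1, -0.079 for LMNB1, -0.0069 for MCM6, 0.12 for RARG and -0.027 for STAG2. With the replicate block, they were 0.033 for CDKN1A, 0.053 for GCLM, 0.054 for HMOX1 and -0.0028 for LMNB1. With upper quartile scaling, they were 0.0073 for GCLM and 0.0093 for RARG. With all 13 libraries, they were -0.0012 for LMNB1. With no filter, they were -3e-04 for LMNB1. With 1 library left out, they ranged from -0.024 to 0.20 for CDH1, from -0.17 to 0.053 for CDKN1A, from -0.063 to 0.31 for DUSP5, from -0.063 to 0.0086 for DUSP6, from -0.17 to 0.14 for ESRP1, from -0.080 to 0.055 for GCLM, from -0.13 to 0.054 for HMOX1, from -0.051 to 0.042 for LMNB1, from -0.037 to 0.081 for MCM2, from -0.0046 to 0.093 for MCM7, from -0.10 to 0.060 for RARG and from -0.037 to 0.14 for STAG2. Depth limits genes of few counts: no gene listed at 0 was read as silent.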

Other observations

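A pair of secreted proteins varied widely between libraries of 1 group; both genes were chosen after their values were seen. MSMP, a secreted microseminoprotein, stood at 337, 898 and 68.1 CPM in the Adapalene libraries, 75.5, 73.2, 81.7 and 131 CPM in Docetaxel and 139.7, 232 and 457 CPM in Vehicle (log2 fold change -2.26, SE 0.58, adjusted p = 0.0152 by edgeR). Adapalene replicate 3 lay below every Docetaxel library, and without Docetaxel replicate 1, Docetaxel replicate 2 or Adapalene replicate 2 the gene was not called (adjusted p = 0.0503 to 0.0659). AGR2, a protein disulfide isomerase of secretory epithelia, stood at 257, 383 and 100.1 CPM, 66.0, 60.0, 76.9 and 130.4 CPM and 115, 143 and 241 CPM in the same order (log2 fold change -1.56, SE 0.37, adjusted p = 0.0104 by edgeR). For AGR2, Adapalene replicate 3 lay within the Docetaxel range. In both genes Docetaxel replicate 4 was the highest of its group.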
